A study of Mus musculus with 6 samples.

Results

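The genes described here encode carriers that move amino acids, small peptides and nucleosides across membranes. They were taken from 10 solute carrier families by name: every non-control probe whose gene name in the array files begins with Slc1a, Slc3a, Slc6a, Slc7a, Slc15a, Slc28a, Slc29a, Slc36a, Slc38a or Slc43a, with the creatine carrier Slc6a8 left out. The rule found 110 probes for 65 gene names, of 27598 gene names on the array, and used no measured value. One of the 65, Slc7a6os, is the neighbour on the opposite strand of Slc7a6 and not a carrier, and is kept because its name has the prefix. The file name Slc6a20 corresponds by accession to Slc6a20b and is given under that name.

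The study put 1 RNA sample on each of 6 single-colour Agilent arrays. An ooplast is an oocyte without its chromosomes, and a blastocyst is the hollow embryo whose inner cell mass lies inside a shell of trophectoderm. All samples are labelled as B6C3 F1 mice, either young or climacteric, that is, at the end of reproductive life, with no age in days or weeks. Ooplasts had 1 array at each age and blastocysts had 2. How the blastocysts came about is not given in the sources used here, and the labels name no treatment or altered gene. Replicates are called biological in the series' design text, but no animals are named, so a p-value here speaks only of the spread among these samples. Slide 1 carried the ooplast arrays together with blastocyst replicate 1 of either age, and slide 2 carried the replicates numbered 2.

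The tissue labels were checked against marker genes. All 10 oocyte markers tested were lower in blastocysts and all 7 trophectoderm markers were higher. The share of spots well above background was 42.2% to 42.4% for ooplasts and 49.9% to 57.3% for blastocysts. The signal's 75th percentile was 235 and 238 units for ooplasts and 721 to 1111 for blastocysts. A level below is the log2 signal of a probe minus that array's 75th percentile, so 0 is the 75th percentile and 1 unit is a doubling. Levels are compared between arrays for the same probe and never between probes. A lower level in bulk RNA cannot be told apart from fewer cells of a type, and the number of arrays limits the precision.

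Amino acid carriers differ in what drives them. Sodium-coupled carriers (Slc1a, Slc6a, Slc38a) concentrate their substrates, exchangers (most of Slc7a) swap one amino acid for another, and Slc36a and Slc15a run on protons. Several Slc7a proteins are light chains that reach the cell surface only when bound to a heavy chain, Slc3a2 or Slc3a1. In mouse eggs and early embryos the glycine carrier Slc6a9 is known for its part in cell volume control, and uptake of leucine and arginine by trophectoderm is known to feed growth signalling through the mTORC1 kinase complex. Nucleosides enter through concentrative (Slc28a) or equilibrative (Slc29a) carriers and are then salvaged by kinases.

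Some of the carrier genes are textbook targets of the amino acid response, in which the transcription factor Atf4 binds a composite element in promoters. The core of that element, TGATGNAA, was searched on both strands of 300-base RefSeq promoter windows (GRCm38.p6), which run from 250 bases before the start site. Of the 65 genes 47 had a window. The core was found in 4 of their 75 windows (5.33%), against 3.97% of all 32851 windows, and these 4 belong to 3 genes, Slc7a11, Slc7a7 and Slc1a4. They are shown because their stage differences ran both ways. Slc7a11 fell to background in blastocysts, while Slc7a7 and Slc1a4 were higher in blastocysts. The Slc7a11 stretch (chr3:50443614-50443863, minus strand) ends just before the start site and holds the core once in each orientation. That of Slc1a4 (chr11:20332699-20332728, minus strand) begins 15 bases before the start site. Those of Slc7a7 (chr14:54418067-54418096 and chr14:54417927-54417952, minus strand) come from overlapping windows of different start sites. Sequences run 5′ to 3′ along the gene, and capitals mark the core on either strand.
Slc7a11: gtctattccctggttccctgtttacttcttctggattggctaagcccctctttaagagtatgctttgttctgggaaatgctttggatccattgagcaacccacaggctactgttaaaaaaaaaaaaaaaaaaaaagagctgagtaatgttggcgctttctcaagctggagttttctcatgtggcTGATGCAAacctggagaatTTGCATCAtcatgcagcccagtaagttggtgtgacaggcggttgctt
Slc1a4: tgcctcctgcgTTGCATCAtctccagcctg
Slc7a7 first: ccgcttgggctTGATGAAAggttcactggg
Slc7a7 second: tagaagcTGATGCAAcagcttccccg

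A second motif was searched only after the sequences had been seen. GGAATG is the core bound by TEAD factors, which act in the trophectoderm programme. It was found in 17 of the 75 windows of these genes (22.7%) and in 14.7% of all windows. For the 6 genes with windows and a fitted stage difference of at least 100-fold, it was found in 3 of 13 windows (23.1%). That is close to the share over all these genes. Of the 6, Slc7a6 and Slc38a4 were at background in ooplasts. Their bounds are 32.0-fold and 61.3-fold, so 100-fold is not shown for them. In Slc28a3 and Slc6a13, both higher in blastocysts, it lay before the start site. Their upstream stretches are given with the motif in capitals (Slc28a3 at chr13:58610878-58611127, minus strand, and Slc6a13 at chr6:121300038-121300287, plus strand). The other of the 3 was in Slc6a9, which was lower in blastocysts and has the motif 10 bases into the transcript. A match is a description of letters and not a site.
Slc28a3: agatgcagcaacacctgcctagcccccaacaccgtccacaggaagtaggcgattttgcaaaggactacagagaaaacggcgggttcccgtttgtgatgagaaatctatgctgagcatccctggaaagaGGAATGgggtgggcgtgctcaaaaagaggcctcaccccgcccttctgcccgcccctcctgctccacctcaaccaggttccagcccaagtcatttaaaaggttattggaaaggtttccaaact
Slc6a13: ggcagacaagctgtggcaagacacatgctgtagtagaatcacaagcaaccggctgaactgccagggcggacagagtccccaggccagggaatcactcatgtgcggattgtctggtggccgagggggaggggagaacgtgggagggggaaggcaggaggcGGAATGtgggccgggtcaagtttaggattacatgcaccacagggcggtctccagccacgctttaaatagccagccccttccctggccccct

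The stages were compared first, 4 arrays of blastocysts with 2 of ooplasts, in a fit that also held age (limma, Benjamini-Hochberg over all 15605 genes tested, threshold 0.05). Higher in blastocysts were 4 of 5 tested Slc1a genes (Slc1a6 was lower), 3 of 4 tested Slc38a genes (Slc38a3 was lower), the peptide carrier Slc15a2 and the nucleoside carrier Slc28a3. Lower were 10 of 13 tested Slc6a genes, among them the glycine carrier Slc6a9 and the taurine carrier Slc6a6 (Slc6a13 was higher), the cystine exchanger Slc7a11 and the cationic carrier Slc7a2. Of the 65 genes, 46 could be tested, having a probe well above background throughout at least 1 stage. Of these 46, 16 (34.8%) were higher and 21 (45.7%) lower in blastocysts, and 9 were not called. Of all genes tested, 74.5% were called, 35.5% higher and 39% lower, so the share called among the carriers (80.4%) is not far from that of all genes. Their median difference was -0.65, beside -0.26 for all genes tested. Other scalings put the median of all genes anywhere from -0.48 to -0.14, and the direction of differences that small is not settled. In 35 of the 37 called genes the levels of the stages did not overlap. That share was not computed for all called genes, so it shows nothing particular to carriers. The calls of 26 of the 37 held under every alternative that tested them, and 11 were lost under at least 1. The like share was not computed for all called genes either. Of the 16 higher genes, 5 had their probe above background on both ooplast arrays, 6 on 1 and 5 on 0. Of the 21 lower genes, 13 had theirs above background on all 4 blastocyst arrays and 4 on 0. A gene at background throughout 1 stage passed the filter through the other, so a bound is given in place of a p-value. A p-value for a gene at background on part of a stage rests partly on background. Such genes also passed the filter through the other stage alone. Among the higher genes these were Slc1a4, Slc1a5, Slc6a13, Slc15a2, Slc28a3 and Slc38a1, and among the lower Slc6a4, Slc7a5, Slc29a3 and Slc36a1. Their p-values are no separate support for the direction.

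By any probe, 26 of the 65 genes (40%) were detected on all 6 arrays, as were 40.0% of all gene names. Another 4 (6.15%) were detected on every blastocyst array and no ooplast array, against 7.51% of all names. Another 4 (6.15%) were detected on both ooplast arrays and no blastocyst array, against 1.64%. None of 13 genes (20%) was detected on any array, against 30.9%. Among them were the kidney and gut neutral amino acid carrier Slc6a19, the gut peptide carrier Slc15a1, the lysosomal carrier Slc36a4 and the leucine carriers Slc43a1 and Slc43a2. The remaining 18 were detected on some arrays of a stage.

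Scaled background lay lower on blastocyst arrays, which bears on dim probes. The 32 carrier probes above background on no array had a median of -4.21 on ooplast and -5.60 on blastocyst arrays. Their stage differences ran from -2.98 to -0.88, with a median of -1.48. For all 14167 such probes the median was -1.5. Of the 21 lower calls, 10 were no larger than the largest of these shifts, a share not computed for all lower calls. These 10 were taken by size alone and include bright genes. Slc3a2 stood between 6.38 and 8.92 over the 6 arrays, Slc7a1 between 0.57 and 2.23 and Slc6a16 between -0.30 and 1.71. Of the 21 genes, 9 lay below the 75th percentile on all 6 arrays. The part of background in those calls was not tested.

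**Figure D1:**
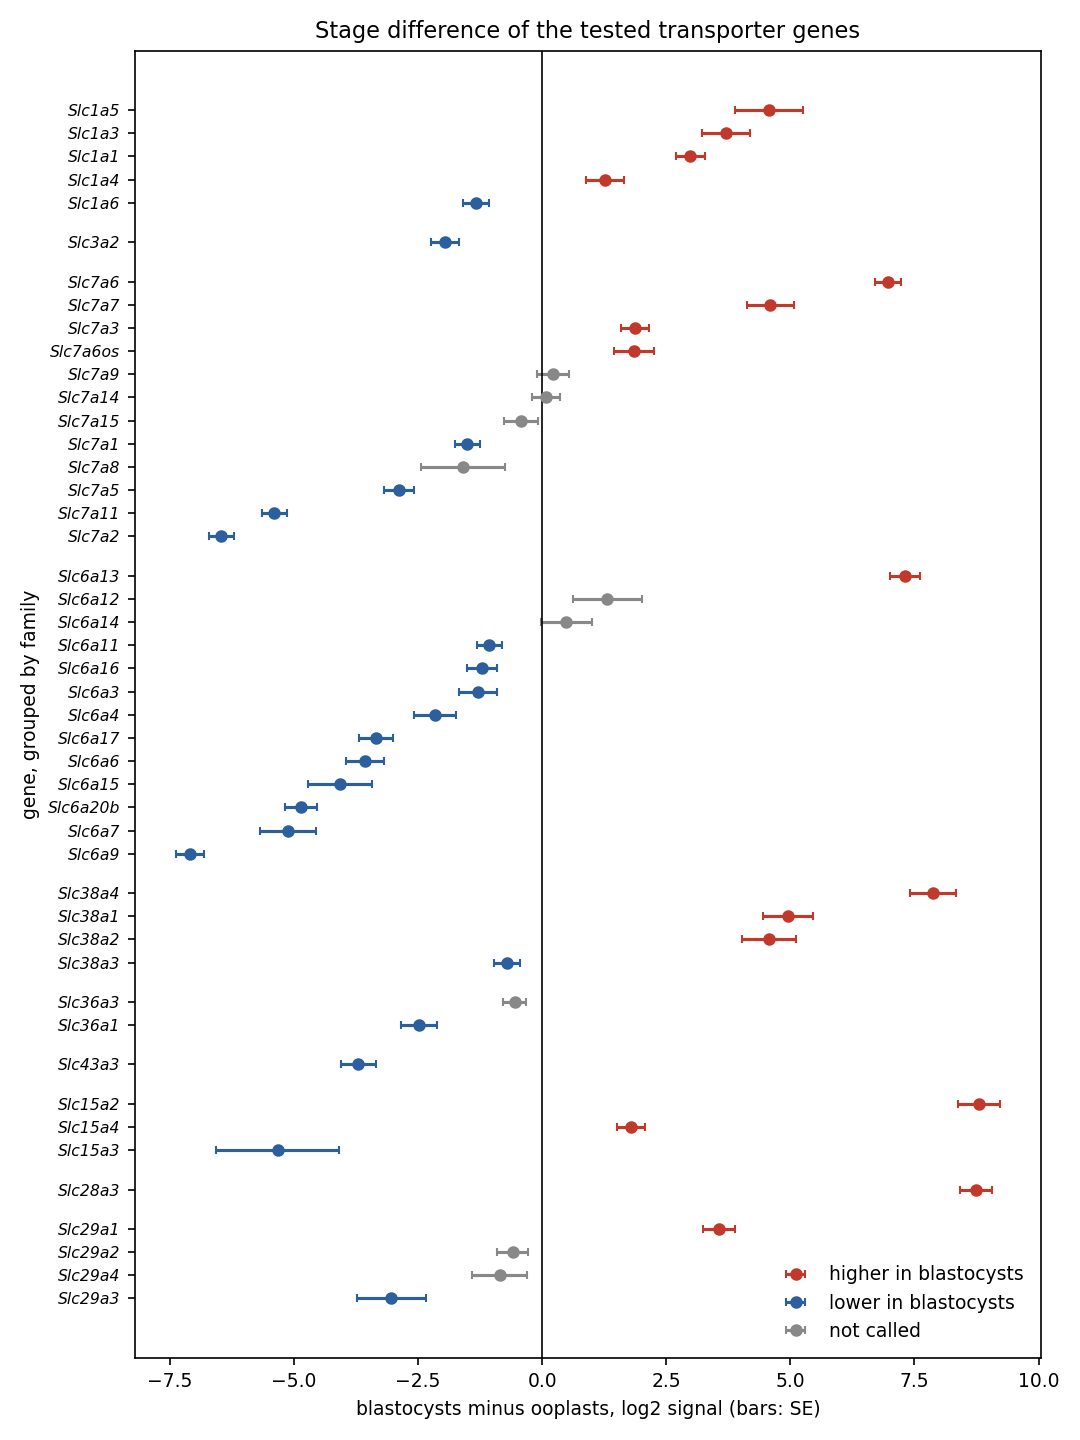
Stage difference of the 46 tested genes by family. The x axis is blastocysts minus ooplasts in log2 signal, points are limma estimates, bars are standard errors, red is higher, blue lower and grey not called. Slc15a2 (8.80) and Slc28a3 (8.74) lie farthest to the right and Slc6a9 (-7.10) farthest to the left, and 10 of the 13 Slc6a genes lie left of 0 in blue.

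The glutamate and neutral amino acid family Slc1a had 5 of 7 genes tested, with 4 higher and 1 lower. Slc1a5, the ASCT2 glutamine exchanger, stood at -0.88 in young and -4.22 in climacteric ooplasts, the latter not well above background. On blastocyst arrays it stood at 1.95 and 2.28 (young) and 1.77 and 2.08 (climacteric), so the blastocyst arrays lay close together and far above both ooplast arrays. It rose by 4.57 ± 0.68 (SE, limma adjusted p = 0.00113). Without the young ooplast array the difference was 6.15, and without the climacteric one 2.99, both still called. Slc1a1, the glutamate and cysteine carrier EAAT3, stood at 3.88 and 4.55 in ooplasts and between 6.89 and 7.45 on the 4 blastocyst arrays. It rose by 2.99 ± 0.29 (SE, limma adjusted p = 0.000173) with its probe on chromosome 19 from 28979839 to 28979898 (mm8, the build of the files). A second probe, from 28978523 to 28978582, went from 0.09 and -0.89 to between 5.80 and 6.16, a difference of 6.39.

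Slc1a3, the glial glutamate carrier GLAST, had probes that went opposite ways. The probe that stands for it was at background in ooplasts (-4.33 and -4.12) and stood between -1.72 and 0.02 in blastocysts, at least 3.30-fold higher. Another was well above background on the young ooplast array alone (3.04), and its difference was -5.15. Slc1a4, the serine and alanine carrier ASCT1, stood at -0.41 and, not well above background, -2.18 in ooplasts and ranged from -0.41 to 0.14 in blastocysts. It rose by 1.26 ± 0.38 (SE, limma adjusted p = 0.023), and its lowest blastocyst array only matched the young ooplast array. Without the climacteric ooplast array it stood at 0.54 and was not called, and it was also not called without climacteric blastocyst replicate 1 (1.07) or replicate 2 (1.24). Slc1a6, a glutamate carrier of Purkinje cells, was lower by a value of background size (-1.33 ± 0.26, SE). Slc1a2 and Slc1a7 were not tested.

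The heavy chain Slc3a2 was lower in blastocysts, and its light chains did not move together. Slc3a2 stood at 8.13 and 8.92 in ooplasts, and at 6.62 and 6.38 in young and 6.78 and 6.50 in climacteric blastocysts, all well above background. It fell by 1.95 on the log2 scale (SE 0.28, limma adjusted p = 0.000962). Slc7a6, the y+LAT2 light chain that exchanges arginine for glutamine, was at background on both ooplast arrays (-4.29 and -4.12) and stood between 2.50 and 3.03 on the 4 blastocyst arrays. It was at least 32.0-fold higher (chromosome 8, 109087699 to 109087758). A second probe was at least 2.96-fold higher and another was at background on every array. Slc7a7, the related y+LAT1, stood at 1.13 and 3.08 in ooplasts and ranged from 6.54 to 6.93 in blastocysts. It rose by 4.60 ± 0.47 (SE, limma adjusted p = 0.00021). The difference was 3.59 without the young and 5.60 without the climacteric ooplast array, and called in both.

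Light chains of the leucine and cystine exchangers were lower. Slc7a5, the LAT1 leucine exchanger, stood at -0.27 and -0.13 in ooplasts and ranged from -3.46 to -2.80 in blastocysts, with 3 of those 4 arrays well above background. It fell by 2.89 on the log2 scale (SE 0.30, limma adjusted p = 0.000201). That size is just inside the range of undetected probes. Slc7a11, the xCT cystine and glutamate exchanger that supplies glutathione synthesis, stood at -0.24 and -0.55 in ooplasts and ranged from -6.10 to -5.48 in blastocysts, at background there. It was at least 9.97-fold lower, and a second probe was at least 6.09-fold lower. Both other probes of Slc7a11 were above background on no array.

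Slc7a8, the LAT2 exchanger, depended on 1 library. Young ooplasts stood at 7.40 and climacteric ones at 3.60, and blastocysts between 3.27 and 4.55. Its difference of -1.59 ± 0.85 (SE) was not called (limma adjusted p = 0.13). Without the climacteric ooplast array it was -3.40 and called, and without the young one 0.21. The second heavy chain, Slc3a1, was at background on both ooplast arrays and above it on 3 blastocyst arrays, so it was not tested for stage. Its partner Slc7a9 stood between -1.64 and -0.62 on all 6 arrays, with a difference of 0.22 ± 0.32 (SE, limma adjusted p = 0.557).

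**Figure D2:**
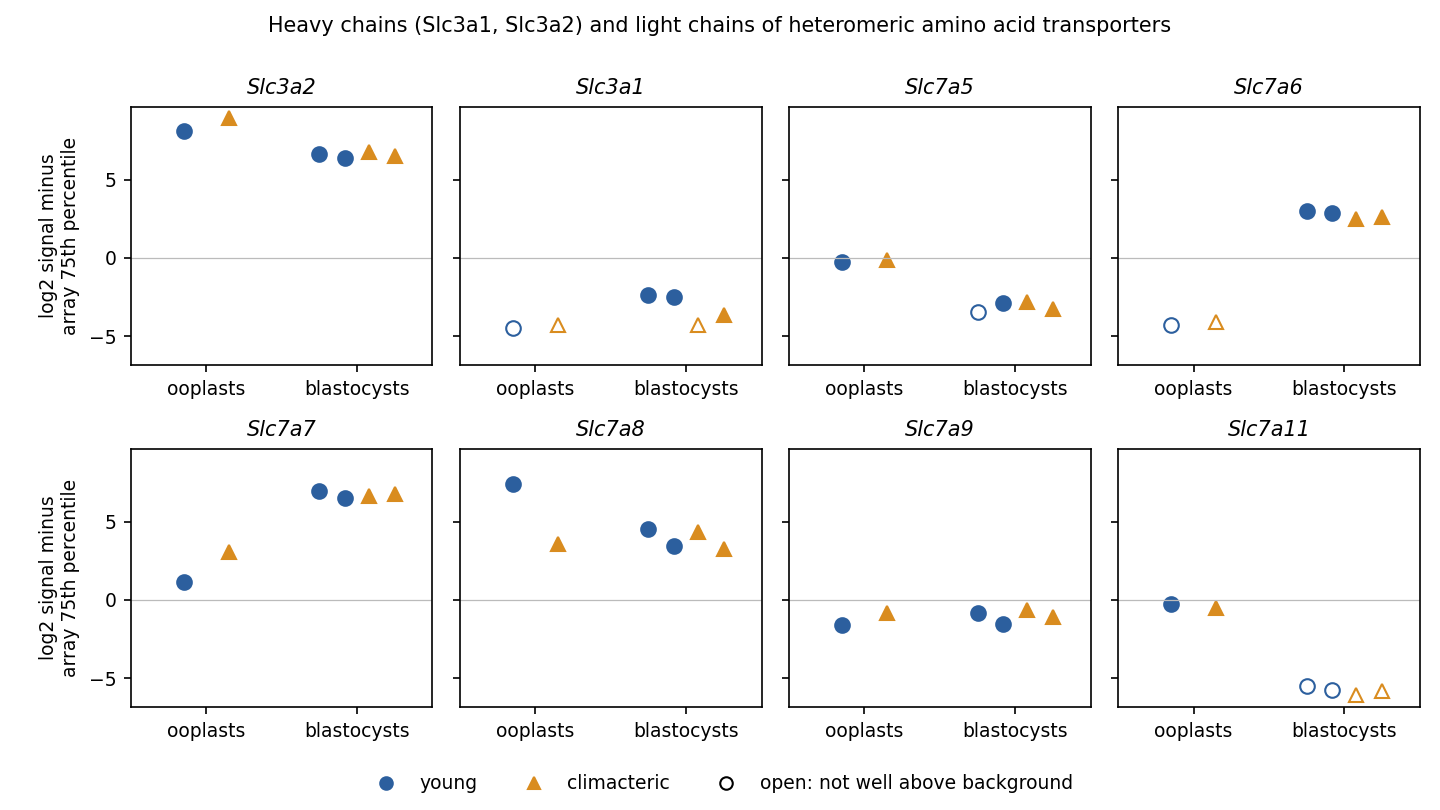
Level of the heavy chains Slc3a2 and Slc3a1 and of 6 light chains on every array. The y axis is the level (log2 signal relative to each array's 75th percentile), circles are young and triangles climacteric arrays, and open symbols are not well above background. Slc7a6 moves from open symbols averaging -4.21 in ooplasts to filled ones averaging 2.75 in blastocysts, Slc7a11 moves the other way, and the Slc7a8 ooplast arrays lie 3.80 apart.

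The cationic carriers bring in arginine and lysine without a heavy chain. Slc7a2 (CAT2) stood at 0.75 and 0.44 in ooplasts and between -6.16 and -5.54, at background, on all 4 blastocyst arrays. It was at least 19.8-fold lower. Slc7a1 (CAT1), the widely expressed form, stood at 2.23 and 2.16 in ooplasts and ranged from 0.57 to 0.96 in blastocysts. It fell by 1.51 on the log2 scale (SE 0.25, limma adjusted p = 0.00185). Slc7a3 (CAT3) was at background in ooplasts (-3.27 and -4.35) and stood between -2.46 and -1.49 in blastocysts, at least 1.24-fold higher. With normexp background correction its difference was -0.034 and not called, so its direction is not settled. Slc7a6os rose by 1.85 ± 0.41 (SE), a call that was lost without the young ooplast array (1.45). Slc7a14 and Slc7a15 were not called.

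The sodium- and chloride-coupled family Slc6a leaned to lower levels in blastocysts. Of 18 genes 13 were tested, with 1 higher, 10 lower and 2 not called, beside 39% lower among all genes tested. Slc6a9, the glycine carrier GlyT1, stood at 7.80 and 7.93 in ooplasts, and at 1.01 and 1.08 in young and 0.35 and 0.64 in climacteric blastocysts. The ooplast arrays differed by 0.12, and all 4 blastocyst arrays lay far below them. Slc6a9 was 137-fold lower in blastocysts (-7.10 ± 0.28, SE, limma adjusted p = 1.02e-05; chromosome 4, 117367162 to 117367221). Slc6a6, the taurine carrier, stood at 6.50 and 7.66 in ooplasts and ranged from 3.03 to 4.10 in blastocysts. It fell by 3.57 on the log2 scale (SE 0.39, limma adjusted p = 0.000269).

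Proline carriers and their relatives were lower too. Slc6a7, the brain-type proline carrier, stood at 9.35 and 7.13 in ooplasts, at 3.82 and 5.71 in young and at 1.30 and 1.65 in climacteric blastocysts. It fell by 5.12 on the log2 scale (SE 0.57, limma adjusted p = 0.000289), and a second probe gave -5.13. Slc6a20b, a relative of the proline and betaine carriers, stood at 0.71 and 1.62 in ooplasts and was at background in blastocysts (-3.85 to -3.54), at least 28.1-fold lower. Its near-identical paralog Slc6a20a, listed in the files under an older name outside the rule, was at least 20.1-fold lower. Signal of this pair may be shared between probes. Slc6a15, a carrier of branched-chain amino acids and proline, stood at -0.76 and -2.01 in ooplasts and at background in blastocysts, at least 5.0-fold lower.

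Slc6a17, a vesicular neutral amino acid carrier of neurons, stood at 8.60 and 7.23 in ooplasts, at 5.08 and 5.96 in young and at 3.72 and 3.49 in climacteric blastocysts. It fell by 3.35 on the log2 scale (SE 0.34, limma adjusted p = 0.000192), and a second probe gave -5.43. Of the other lower calls, Slc6a4, Slc6a3 and Slc6a11 were dim. Slc6a16 was not, with its lowest level at -0.30 and signal well above background on every array. By size alone, the differences of Slc6a4 (serotonin, -2.16), Slc6a3 (dopamine, -1.29), Slc6a16 (an orphan carrier, -1.21) and Slc6a11 (GABA, -1.06) were within the range of undetected probes. Calls of Slc6a3, Slc6a16 and Slc6a11 were lost without the climacteric ooplast array (-0.57, -0.79 and -0.95), and that of Slc6a3 also without either climacteric blastocyst array (-1.19 in both), with slide or replicate number as a block, within slide 1 (-1.16) and in the authors' values.

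One Slc6a gene was higher. Slc6a13, the GABA and taurine carrier GAT2, stood at -2.41, not well above background, and -1.54 in ooplasts. It stood at 5.11 and 5.49 in young and 5.23 and 5.53 in climacteric blastocysts. It rose by 7.31 ± 0.30 (SE, limma adjusted p = 1.1e-05), with 1 of the 2 ooplast arrays at background, and a second probe, at background in ooplasts, was at least 155-fold higher. Its neighbour Slc6a12, the betaine and GABA carrier, was not called (1.31 ± 0.69, SE, limma adjusted p = 0.128). Slc6a14, the broad neutral and cationic carrier B0,+ studied in blastocyst leucine uptake, was not called by the probe that stands for it (0.49 ± 0.51, SE, limma adjusted p = 0.407). Its second probe was at background in ooplasts and stood between -0.93 and 0.08 in blastocysts, at least 3.58-fold higher. With the mean of both probes the gene was called (2.11).

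Of the sodium-coupled neutral carriers of Slc38a, 4 of 5 genes were tested, with 3 higher in blastocysts and 1 lower. Slc38a4 (SNAT4), an imprinted gene of placenta and liver, was at background in ooplasts (-4.31 and -4.07) and stood at 4.17 and 3.58 in young and 2.78 and 4.22 in climacteric blastocysts. It was at least 61.3-fold higher, and its second probe at least 1.89-fold. Slc38a1 (SNAT1), a glutamine carrier, rose by 4.95 ± 0.50 (SE, limma adjusted p = 0.000187), from -0.99 and -1.80 to between 2.73 and 4.09. Its 6 probes gave differences from -0.70 to 8.15, and 5 of the 6 lay above 0.

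Slc38a2 (SNAT2), which is induced by amino acid shortage in many cells, was at background by its main probe in ooplasts (-2.45 and -3.61) and stood between 0.71 and 2.47 in blastocysts. That probe was at least 13.9-fold higher. Another probe was above background on all 6 arrays and gave 0.80. With probes required to be above background everywhere, this probe was the one tested and the gene was not called. Slc38a3 was lower by -0.70 ± 0.26 (SE), a call lost under 12 alternatives, among them slide or replicate number as a block and leaving out each array in turn (-0.77 to -0.63). Slc38a5 was not tested.

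Listed under older names outside the rule, Slc38a7 was not called (0.27 ± 0.26, SE, limma adjusted p = 0.365). Slc38a10 was higher (1.67 ± 0.23, SE, limma adjusted p = 0.00085) and Slc38a8 lower (-0.99 ± 0.29, SE, limma adjusted p = 0.0208). Slc38a9, the lysosomal arginine sensor of mTORC1, had probes at 4.99 and -3.44. The proton-coupled lysosomal carrier Slc36a1 stood at -1.31 and -1.16 in ooplasts and ranged from -4.24 to -3.21 in blastocysts, a fall of 2.48 on the log2 scale (SE 0.37) inside the range of undetected probes. Slc43a3, a purine nucleobase carrier, stood at 7.07 and 7.93 in ooplasts and ranged from 3.38 to 4.40 in blastocysts. It fell by 3.70 on the log2 scale (SE 0.35, limma adjusted p = 0.00014).

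Peptide carriers split. Slc15a2 (PEPT2), the high-affinity carrier of di- and tripeptides, stood at -2.24, not well above background, and -1.75 in ooplasts. In blastocysts it stood at 7.51 and 6.31 (young) and 6.94 and 6.43 (climacteric). It rose by 8.80 ± 0.42 (SE, limma adjusted p = 1.41e-05; chromosome 16, 36691681 to 36691740). This probe, too, passed the filter through blastocysts alone. A second probe stood at 0.71 and 0.41 in ooplasts and ranged from 0.66 to 2.80 in blastocysts, so the probes differ widely and the stages overlap on the second one. With the filter that asks for signal on all arrays, the second one was tested instead and not called (1.21). Slc15a4, a lysosomal peptide and histidine carrier, rose by 1.79 ± 0.27 (SE, limma adjusted p = 0.00124), from 2.76 and 2.37 to between 4.11 and 4.57. Slc15a3, its close relative, stood at 6.32 and 1.38 in ooplasts, at -2.54 and 1.83 in young and at -2.15 and -3.05 in climacteric blastocysts. It was lower (-5.33 ± 1.24, SE, limma adjusted p = 0.00815), with overlapping stages, and the call was lost without the young ooplast array (-3.98).

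Nucleoside carriers also split. Slc28a3 (CNT3), which concentrates purine and pyrimidine nucleosides, stood at -1.42 and, not well above background, -2.13 in ooplasts. It stood at 7.40 and 6.66 in young and 7.06 and 6.76 in climacteric blastocysts. It rose by 8.74 ± 0.33 (SE, limma adjusted p = 9.44e-06; chromosome 13, 58562951 to 58563010). That probe passed the filter through blastocysts alone. A second probe was at background in ooplasts and at least 2.39-fold higher in blastocysts. Slc29a1 (ENT1), the main equilibrative carrier, stood at -1.68 and -0.60 in ooplasts and ranged from 2.10 to 3.15 in blastocysts. It rose by 3.57 ± 0.32 (SE, limma adjusted p = 0.000117). Slc29a3, the lysosomal form, was lower (-3.04 ± 0.70, SE), a call lost without the young ooplast array (-2.13). Slc29a2 (-0.59 ± 0.31, SE) and Slc29a4 (-0.86 ± 0.55, SE) were not called, and Slc28a2 was above background on 1 array only.

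**Figure D3:**
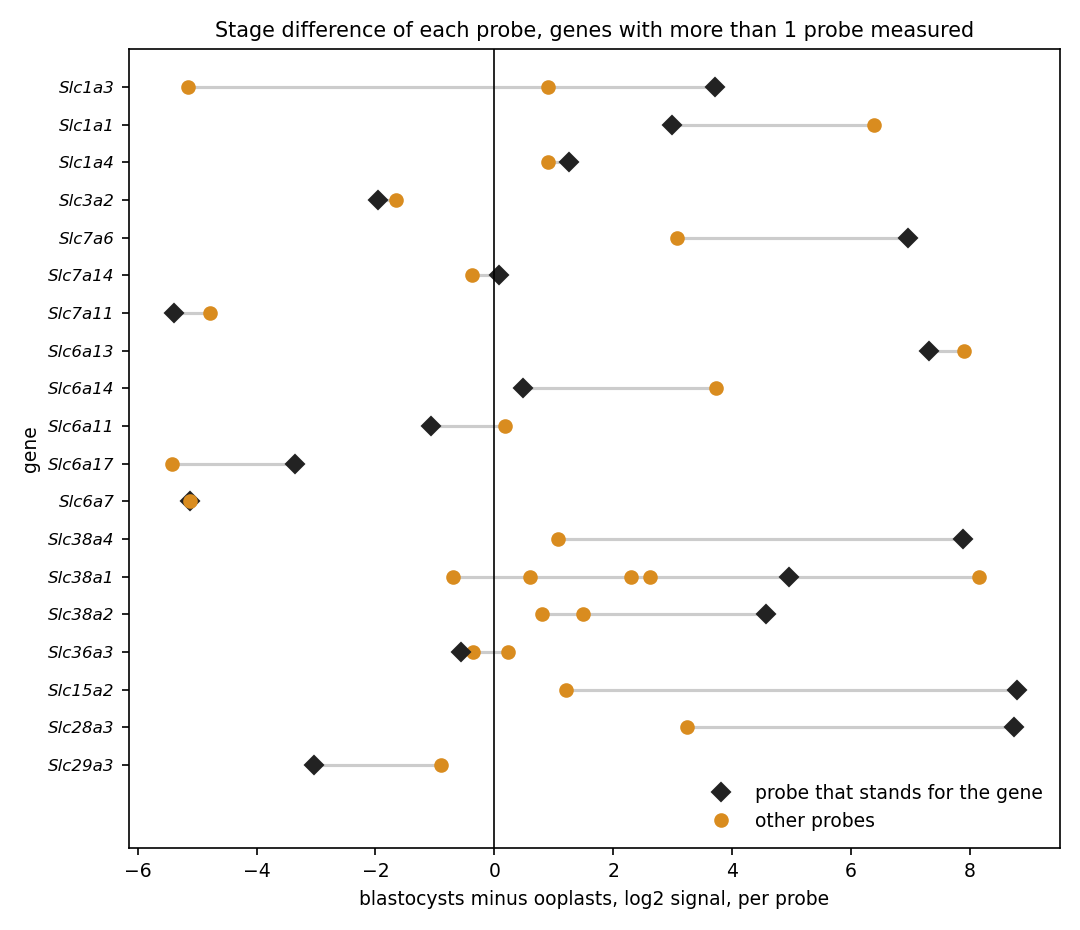
Stage difference of each probe for the 19 genes with more than 1 probe measured on at least 1 array. The x axis is blastocysts minus ooplasts in log2 signal, diamonds stand for the gene in the test and circles are its other probes. Probes of Slc38a1 spread from -0.70 to 8.15 and those of Slc15a2 from 1.21 to 8.80, while both Slc6a7 probes lie at -5.1.

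Fixed lists of related genes were read beside the carriers, with 74.5% of all genes called. Of 31 genes that sense amino acids for mTORC1, 13 were higher, 13 lower and 5 not called (median 0.32). Mtor, at background in ooplasts, was at least 11.0-fold higher, Wdr59 at least 10.7-fold, and Rptor rose by 4.49 ± 0.27 (SE), while Rragc (-5.22), Deptor (-4.41) and Akt1s1 (-4.25) were lower. Of 20 genes of the amino acid shortage response 7 were higher and 10 lower (median -1.36). The serine synthesis gene Psat1 was at least 44.2-fold higher, Atf4 rose by 3.58 ± 0.31 (SE) and asparagine synthetase Asns by 2.34 ± 0.37 (SE), while Ppp1r15a (-4.84), Nupr1 (-4.70) and Ddit4 (-4.00) were lower. Slc7a11, which holds the response element core in both orientations, went with the lower genes, as described above.

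Of 16 nucleoside salvage genes 8 were higher and 6 lower (median 0.22). The uridine and cytidine kinase Uck2 rose by 5.62 ± 0.26 (SE), Aprt by 5.05 ± 0.27 (SE) and thymidine kinase Tk1 by 2.67 ± 0.32 (SE), while Dctd (-3.30), Mtap (-3.09) and Pnp (-2.73) were lower. Of 21 peptidases, which cut peptides into the substrates of these carriers, 13 were higher and 5 lower (median 1.71). The surface aminopeptidase Enpep was at least 129-fold higher, the prolidase Pepd rose by 7.69 ± 0.53 (SE) and Lap3 by 6.25 ± 0.32 (SE). The carnosinase Cndp1 (-5.37), Dpp7 (-4.49) and Ace (-3.36) were lower. The ooplast levels of these 3 and of Akt1s1 were far apart, as with Cndp1 at 5.37 on the young and 0.16 on the climacteric array.

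Of 17 other amino acid carriers, mostly of mitochondria, vesicles and lysosomes, 1 was higher, Slc66a1 (5.10), and 9 were lower (median -0.96). The mitochondrial ornithine carrier Slc25a15 was at least 40.0-fold lower, and Slc16a10, an aromatic amino acid carrier, fell by 3.66 (SE 0.32). Of 14 partner and regulator genes 7 were higher and 5 lower (median 1.5). Collectrin, Cltrn, which escorts Slc6a19 and Slc6a20 proteins to the surface, stood at 2.17 and 2.18 in ooplasts and was at background in blastocysts, at least 59.2-fold lower. The scaffold gene Slc9a3r1 rose by 5.42 ± 0.44 (SE) and the kinase gene Sgk1 by 4.08 ± 0.38 (SE), while Stk39 fell by 4.57 (SE 0.57).

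The second comparison asked whether blastocysts differed with age. No carrier gene passed the threshold: 0 of 43 tested, and 0% of all 15971 genes (limma, Benjamini-Hochberg). At an unadjusted p under 0.05 there were 5 of 43 (11.6%), beside 5.41% of all genes. In 15 of 43 (34.9%) the age groups did not overlap, beside 30% of all genes. Of these 15, 10 were lower in climacteric blastocysts, a split not computed for all genes. Of all 43 carrier genes, 22 (51.2%) were lower, and their median difference was -0.03. The proline carrier Slc6a7 had the smallest unadjusted p. It averaged 4.77 ± 1.34 (SD, n = 2) in young and 1.48 ± 0.24 (SD, n = 2) in climacteric blastocysts, a difference of -3.29 ± 0.66 (SE, limma unadjusted p = 0.00362, adjusted p = 0.51). It was lower on both slides (-2.52 and -4.07). Its second probe did not show this, with -2.29 and -2.66 in young and -2.39 and -2.55 in climacteric blastocysts.

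Slc6a17 averaged 5.52 ± 0.63 (SD, n = 2) in young and 3.61 ± 0.16 (SD, n = 2) in climacteric blastocysts, a difference of -1.91 ± 0.39 (SE, limma adjusted p = 0.516). It was lower on both slides (-1.35 and -2.47). A second Slc6a17 probe, at 2.88 and 3.73 in young and 0.78 and -0.48 in climacteric blastocysts, had the same direction on both slides. The heavy chain Slc3a1, near background, differed by -1.53 ± 0.34 (SE, limma adjusted p = 0.566). Slc36a3, a proton-coupled carrier, differed by 1.23 ± 0.32 (SE, limma adjusted p = 0.666) on 1 probe and by 3.16 on another. Each of these was above background on 3 blastocyst arrays. A further Slc36a3 probe, above background on all 4 arrays, differed by -0.11. Slc7a14 differed by 1.16 ± 0.34, Slc29a2 by 0.89 ± 0.37, Slc7a3 by -0.62 ± 0.31 and Slc6a9 by -0.55 ± 0.29 (SE), with limma adjusted p of 0.725 or more. None of the 6 fixed lists had a called gene.

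The third comparison, climacteric against young ooplasts, had 1 array a group and carries no test and no replicate check. Of 33 carrier genes above background on both arrays, 11 (33.3%) were at least 2-fold apart, beside 17.2% of all 12291 such genes. Of these 6 (18.2%) were higher in climacteric ooplasts, beside 7.36% of all genes, and 5 (15.2%) lower, beside 9.86%. After quantile normalization the split was 9 higher and 4 lower, and with normexp 2 and 4. Shares of all genes were not computed at either setting, so the shares above do not apply to these splits. The lower genes were the peptide and histidine carrier Slc15a3 (6.32 to 1.38), the LAT2 gene Slc7a8 (7.40 to 3.60), Slc6a7 (9.35 to 7.13), Slc6a17 (8.60 to 7.23) and Slc6a15 (-0.76 to -2.01). A second Slc6a7 probe went from 3.09 to 2.22, under 2-fold, and a second Slc6a17 probe from 8.33 to 5.99. Slc6a17 was under 2-fold after quantile normalization (-0.88) and in the authors' values (-0.70).

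Higher in climacteric ooplasts were Slc7a7 (1.13 to 3.08), Slc6a3 (-1.89 to -0.40), Slc6a4 (-1.74 to -0.41), Slc6a6 (6.50 to 7.66), Slc29a1 (-1.68 to -0.60) and Slc6a16 (0.67 to 1.71). With normexp, Slc6a3 (0.75), Slc6a4 (0.61), Slc29a1 (0.46), Slc6a16 (0.83) and the lower gene Slc6a15 (-0.59) were under 2-fold. Above background on the young array alone were the retinal glutamate carrier Slc1a7, at least 45.6-fold lower in climacteric ooplasts, and 1 probe of Slc1a3, at least 37.7-fold. Slc1a4 (at least 3.41-fold), Slc38a5 (at least 3.35-fold) and Slc1a5 (at least 2.50-fold) were likewise lower there. Slc29a4, above background on the climacteric array alone, was at least 2.02-fold higher there.

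Markers of other cells differed between the same 2 arrays. Of 16 cumulus and granulosa cell markers 8 were above background on each ooplast array, with a log2 summed level of 8.80 on the young and 6.66 on the climacteric array, and 4.07 to 5.14 on the blastocyst arrays. Inha, of that list, stood at 8.44 and 2.80 in ooplasts, and at 1.44 on young blastocyst replicate 2 against -2.55 to -1.53 on the others, the array on which Slc15a3 (1.83) and Slc6a7 (5.71) were also high. Inha was the brightest of the list on the young ooplast array, and a summed level mostly follows its brightest genes. On blastocyst arrays the brightest were Amhr2 (2.94 to 4.05) and Gja1 (2.10 to 3.52), both higher there than in ooplasts. Of 10 genes of the list tested for stage, 2 were higher in blastocysts and 6 lower. Has2 was above background on both young blastocyst arrays (-1.97 and -2.33) and on neither climacteric one (-4.33 and -5.77). Cyp19a1, of the same list, stood at 6.30 and 6.22 in ooplasts, and Fshr, Lhcgr, Star and Kitl were at background on both. Tnfaip6 (1.15 to -1.03) and Inhba (-0.15 to -0.78) were also lower in climacteric ooplasts. Amh (2.12 to 2.54), Ptx3 (1.34 to 1.84) and Hsd3b1 (2.81 to 3.05) were higher there. Of 14 macrophage markers 5 were detected in young and 10 in climacteric ooplasts, with a log2 summed level of 2.10 and 5.42. That level was 5.28 on climacteric blastocyst replicate 1 and 1.78 to 1.90 on the other blastocyst arrays. Lyz2 (5.07) and the dimmer Tyrobp (-1.90) were above background on climacteric blastocyst replicate 1 and on no other blastocyst array. The part of these cells in the differences above was not tested.

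**Figure D4:**
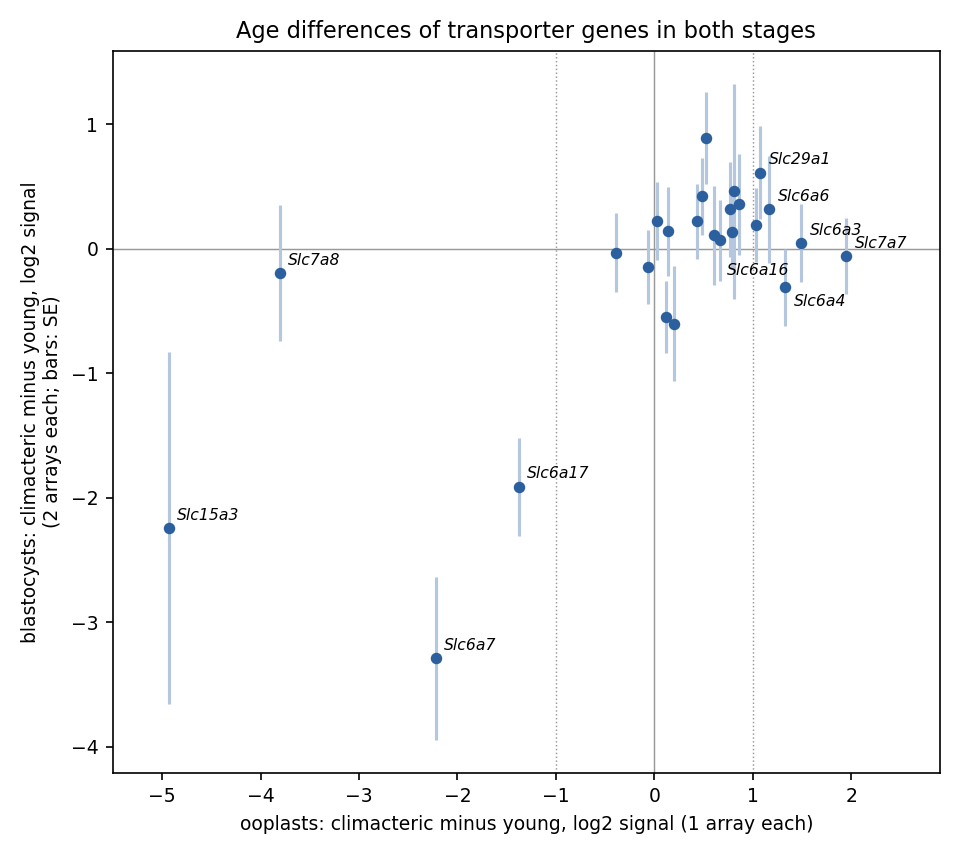
Age difference of 25 genes in ooplasts (x axis, 1 array each) and in blastocysts (y axis, 2 arrays each, bars are standard errors), both climacteric minus young in log2 signal of the same probe, with dotted lines at 2-fold in ooplasts. Slc6a7 and Slc6a17 lie left of and below 0, neither called in blastocysts, while Slc7a8 (-3.80 in ooplasts, -0.20 in blastocysts) lies near 0 in blastocysts.

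Whether the age difference depends on the stage was tested as an interaction, with the spread taken from the blastocyst replicates. Of 51 carrier genes, 1 was called (1.96%), beside 0.821% of all 17412 genes tested. It was Slc1a7, which stood at 3.32 on the young ooplast array and at background on all 5 others (-4.77 to -3.33). The interaction was 6.37 ± 0.70 (SE, limma adjusted p = 0.0444). It passed the filter through that array alone and restates its value, and the call was lost under 7 of 11 alternatives, with adjusted p from 0.0152 to 0.162.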

How the data were processed

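Gene expression was measured on 6 single-colour Agilent arrays of mouse ooplasts and blastocysts. The values are the intensity of each spot as deposited, background-corrected by Agilent Feature Extraction 9.5 per the submitters' processing notes. A value table deposited by the authors, in log2 and matching a quantile normalization of these signals, served as an alternative. Here each log2 signal was taken minus the 75th percentile of its array (control spots left out). Testing a probe needed a signal well above background throughout 1 or more of the groups compared. A gene was represented by its brightest such probe on average. That average was over all 6 arrays, 4 of them blastocysts, so the rule leans to probes bright in blastocysts. With the mean of such probes instead, 38 of 46 carrier genes were called, 17 higher and 21 lower, beside 11552 of all 15605. Of 41174 probes, 24375 were named through the accession, 6301 through the symbol and 2426 through a synonym in RefSeq tables, and 8072 kept the name in the files. limma 3.58.1 in R 4.3.3 (lmFit, eBayes) was fitted to all genes with Benjamini-Hochberg adjustment and a threshold of 0.05, and was tested on simulated data. Where a gene was above background on no array of a group, "at least N-fold" compares the brighter group's mean with, per array of the dimmer group, the higher of the lowest signal well above background and the probe's own.

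Genes named are up to 4 per family and direction by size of the stage difference, those bounded in 1 stage, a fixed list of well-known carriers, those with discordant probes, up to 8 by age in blastocysts, those at least 2-fold apart and up to 6 bounds in ooplasts, and up to 3 per direction of each related list. The members and lists were chosen with earlier results of these data known. Replicate numbers were not shown to pair blastocyst samples: over 2 pairs their deviations correlated at 0.17, and 2 pairs are too few to tell. Alternatives were other scalings, normexp with an offset of 50, other filters and probe rules, slide and replicate blocks, and leaving out each array. The number of per-sample columns not used was 0. One gene of the families is not reported here by name.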

Additional observations from a re-analysis of the deposited data

Results flagged for a closer look

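For the retinal glutamate carrier Slc1a7 the fitted age difference was unequal between stages (interaction 6.37 ± 0.70, SE, limma adjusted p = 0.0444), a call lost under 7 of 11 alternatives. It was well above background on the young ooplast array alone, with 1 ooplast array per age, so the value restates that array.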

How the results depend on the processing

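With no filter on dim probes, 52 of 65 carrier genes were called, 36 of them lower in blastocysts. Of all 27598 genes 19948 were called, and that set includes probes above background on no array. With only probes above background on all 6 arrays, 25 genes were tested and 18 called, 5 higher and 13 lower. Of all genes, 8107 of 10910 were called there. Leaving out 1 blastocyst array at a time, calls ranged from 34 to 37, with 15 to 16 higher and 19 to 21 lower. The lowest, without climacteric replicate 2, was 34 of 46 tested, beside 10939 of all 15684. The highest, without young replicate 1, was 37 of 47, beside 11388 of all 16042. Leaving out an ooplast array leaves 1 in that stage, and no count is given. With the replicate block, the same split as with slide as a block, 35 genes were called for stage, 16 higher and 19 lower, and 0 for age in blastocysts. The carrier calls lost were Slc6a3 and Slc38a3, and of all 15605 genes 10771 were called for stage. Within slide 1, 32 of 47 carrier genes were called, beside 9947 of all 16003. With normexp background correction the sign of the stage difference turned for Slc7a3 (-0.034), and for Slc7a14 (-0.71), Slc6a14 (-0.12) and Slc7a9 (-0.21), which were not called without it. No carrier gene was called for age in blastocysts under any alternative run. The age-by-stage count was 0 after quantile normalization, in the authors' values, with no filter, with the all-array filter, and without any one blastocyst array. In ooplasts, 6 of 33 carrier genes were at least 2-fold apart with normexp, and 20 at least 1.5-fold in the main values. The shares over all genes at these 2 settings were not computed. With 1 ooplast array per age, no ooplast age difference has a measured error, and dim probes are limited by signal over background.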
